A study of Mus musculus with 6 samples.

Results

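The zinc-dependent histone deacetylases are represented here by 10 mouse genes, Hdac1 to Hdac8, Hdac10 and Hdac11, out of 27179 genes counted in activated CD8+ T cells with and without butyrate. They were taken by name, through the gene number in the deposited counts, and all 10 were found and passed the filter on low counts. The butyrate group had 3 libraries of gBT-I T cells cultured with butyrate from day 3, and the control group had 3 libraries of the same cells cultured without it. All 6 came from spleen cells of transgenic gBT-I mice kept specific pathogen free, whose T cell receptor recognises a herpes simplex virus glycoprotein B peptide (gB498-505). In both groups culture began with that peptide and LPS, and the cells received IL-2 on days 2 to 5, and were harvested on day 6. The dose of butyrate, the age and sex of the mice, any sorting of the cells, and whether the replicates came from separate mice or cultures were not given in the sources used here. The p-values therefore measure the spread between these libraries, which may be technical.

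These enzymes remove acetyl groups from lysines of histones and other proteins, using a zinc ion in the catalytic site, and butyrate, a fatty acid made by gut bacteria, inhibits several of them. Class I enzymes (Hdac1, Hdac2, Hdac3 and Hdac8) are mostly nuclear, and the first 3 work inside corepressor complexes. Class IIa enzymes (Hdac4, Hdac5 and Hdac7) shuttle between nucleus and cytoplasm, bind MEF2 transcription factors and have little deacetylase activity of their own. Class IIb holds Hdac6, a tubulin deacetylase, and Hdac10, a polyamine deacetylase, and class IV holds Hdac11 alone, an enzyme that removes long fatty acyl groups. The comparison asks whether the mRNAs of this enzyme family differ in cells exposed to butyrate.

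Library totals ran from 5383380 to 6244350 counts. The libraries stood as T cells by their markers: Cd8a, the CD8 alpha chain, averaged 436 ± 55.1 CPM with butyrate and 454 ± 62.1 CPM in control (SD, n = 3 each), where CPM is counts per 1000000 of the TMM-scaled library total. Over 10 T cell markers the sums were lower, at 3885 to 4168 CPM with butyrate and 4582 to 5277 CPM in control. Their median log2 fold change was -0.49, and that of all tested genes 0.0. Of the 10, 3 fell by edgeR's adjusted p under 0.05, as did 22.5% of all tested genes. Cd3e and Cd247, chains of the receptor complex, were among the 3 (log2 fold changes -0.61 and -0.62). With the replicate number as a block, or with no filter, 6 fell, and without butyrate replicate 1 the number was 7. In those fits 3095 of 11740, 2872 of 16993 and 2552 of 11904 tested genes fell. Markers of other spleen cells stood low, and several rose, where 23.5% of all tested genes were called higher. Over 17 macrophage, dendritic cell and granulocyte markers, 7 of which could be tested, the summed level was 97.8 to 131 CPM with butyrate and 25.8 to 91.7 CPM in control, with 3 called higher (Itgam, Siglecf and Cxcr2). Itgam, the CD11b integrin chain, averaged 44.1 ± 9.5 CPM with butyrate and 4.08 ± 0.682 CPM in control. Other members were present in both groups without a call, such as Lyz2 and Itgax, and varied between replicates. Lyz2 had 55, 158 and 204 counts in butyrate replicates 1, 2 and 3, and 76, 45 and 281 in the control replicates. Itgax had 70, 44 and 67 counts with butyrate and 53, 34 and 94 in control. Adgre1 and Csf1r, more specific to macrophages, had 2 and 10 counts over the butyrate libraries and 2 and 16 over the control libraries, and Siglech was at 0 in every library. Over 11 B cell and plasma cell markers the sums were 42.3 to 49.6 CPM with butyrate and 28.2 to 31.0 CPM in control. Sdc1 and Cd22 were called higher among 4 tested, and Pax5, the defining B lineage factor, had 0 counts in every library. Of 10 erythroid and platelet markers 5 were tested and Hbb-b1 and Epor were called higher, and the sums, 801 to 1052 CPM with butyrate and 604 to 822 CPM in control, were mostly Tfrc, which dividing T cells also express. Of the Hbb-b1 counts, 170 of 197 with butyrate lay in replicate 3, and control held 2. Under the replicate block 5 erythroid and platelet markers were called higher. With no filter, without butyrate replicate 1 or without control replicate 3 the number was 4. It was 1 at 5 CPM or more in 3 libraries, and 1 with robust edgeR, where Hbb-b1 lost its call (adjusted p = 0.0526). Over all tested genes, 3220 of 11740 were called higher under the block and 2961 of 16993 with no filter. Without butyrate replicate 1 or control replicate 3 they were 2633 of 11904 and 2483 of 11996. At 5 CPM they were 2466 of 10526, and with robust edgeR 2741 of 11740. The number of these markers that could be tested also changes with the filter. For Siglecf, Cxcr2, Cd22, Epor and Hbb-b1, 0 of 3 control libraries passed the filter's cutoff, and for Sdc1 1 of 3 did, so they entered the test through the butyrate libraries and could be called only as genes that rose. In bulk RNA, more cells of a type and more RNA per cell cannot be told apart, and the part of these markers in the results below was not tested.

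Among the 10 genes, 2 were called higher with butyrate (Hdac1 and Hdac11) and 3 lower (Hdac5, Hdac7 and Hdac10), while 5 were not called. Of all 11740 genes tested, 45.9% were called, 23.5% higher and 22.5% lower, so the family's 5 of 10 is near the background of this comparison. The share of all calls that were higher was 51.1%, and 61.8% with upper quartile scaling. The groups did not overlap for 6 of the 10 genes, against 57.1% of all genes tested. The median log2 fold change of the family was -0.06, and that of all tested genes 0.0. Every called gene other than Hdac11 changed by less than 2-fold, while 10.6% of tested genes were called higher by at least 2-fold and 3.33% lower. These calls leave out the replicate number, by which butyrate and control libraries may be paired. With the replicate number as a block, 53.8% of tested genes were called. Of the family, 2 were then called higher and 4 lower, as Hdac6 joined the genes called lower.

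**Figure D1:**
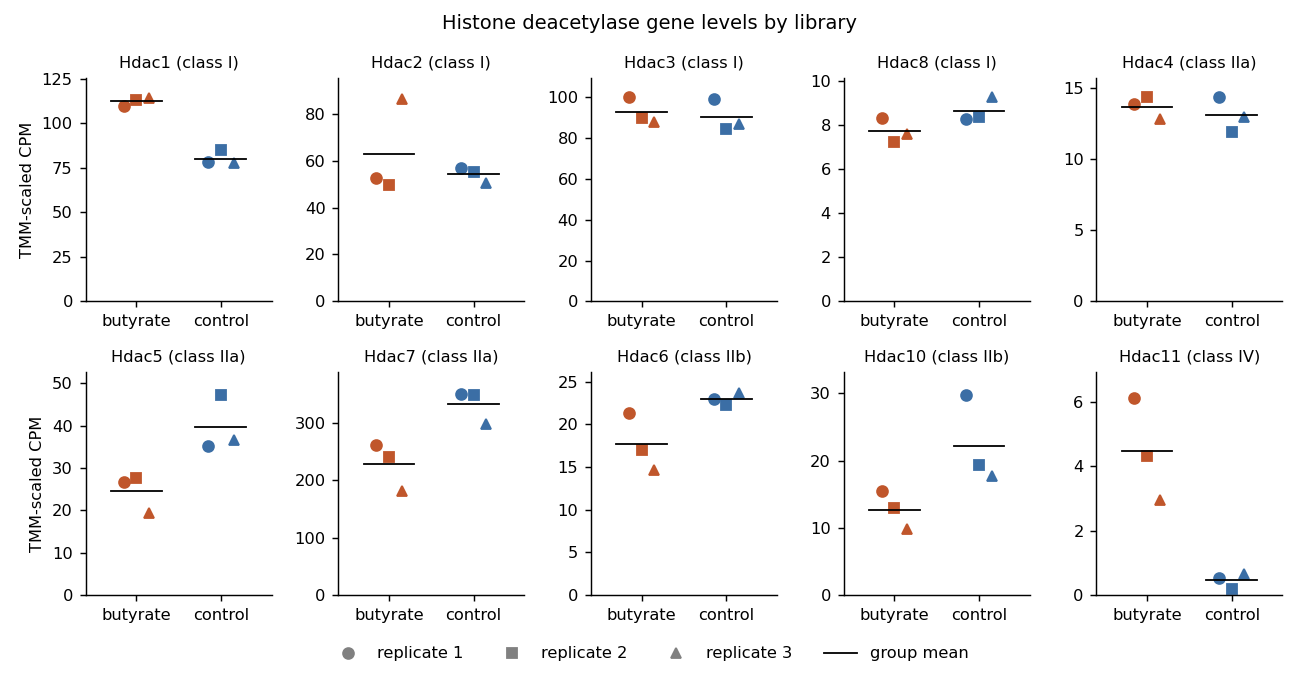
Level of each histone deacetylase gene in TMM-scaled CPM (vertical axis, from 0) in the 3 butyrate and 3 control libraries, with the replicate number as the marker shape and the group mean as a line. Hdac1 and Hdac11 sat higher in every butyrate library, and Hdac5, Hdac6, Hdac7 and Hdac10 lower, than in any control library.

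Class I genes, which encode the main nuclear deacetylases, split into 1 that rose and 3 that were not called. Hdac1 (gene 433759, chromosome 4, 129516104 to 129542646, minus strand of GRCm38) encodes a catalytic subunit of the SIN3, NuRD and CoREST complexes. It stood at 109.7, 113 and 114 CPM in butyrate replicates 1, 2 and 3, against 78.1, 84.8 and 77.5 CPM in control replicates 1, 2 and 3. The groups did not overlap. The butyrate libraries varied by 2.09% and the control libraries by 5.0% (SD over mean), where counting alone gives 4.01% and 4.68%. The butyrate value is below that of counting alone, so it understates the spread to be expected. The log2 fold change was 0.49 (SE 0.0776, edgeR adjusted p = 0.00115), or a rise of 40.1%. Of the distinct 50-base stretches in the Hdac1 transcripts of GENCODE M21, 31.7% also occur in Gm10093, a processed copy of Hdac1 that is not analysed here, and the handling of reads that match both was not given in the sources used here.

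Hdac2 (gene 15182, chromosome 10, 36974297 to 37001889, plus strand), the closest relative of Hdac1 and its partner in the same complexes, did not pass the test. It had 52.5, 49.7 and 86.3 CPM with butyrate, against 56.9, 55.1 and 50.5 CPM in control. Butyrate replicate 3 stood above the other 5 libraries, and the remaining butyrate libraries lay within or below the control range. The spread of the butyrate libraries was 32.4% of their mean, where counting alone gives 5.37%. The log2 fold change was 0.21 (95% interval -0.23 to 0.66, edgeR adjusted p = 0.397), and it was -0.08 without butyrate replicate 3. Counts of Hdac1 per count of Hdac2 were 2.09, 2.27 and 1.32 with butyrate, against 1.37, 1.54 and 1.54 in control. That ratio was thus higher than in any control library in butyrate replicates 1 and 2 and lower than in any control library in replicate 3.

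Hdac3 (gene 15183, chromosome 18, 37936971 to 37955015, minus strand), the catalytic subunit of a nuclear receptor corepressor complex, had 100.4, 89.9 and 87.8 CPM with butyrate, against 99.4, 84.4 and 86.8 CPM in control. The groups overlapped, with a log2 fold change of 0.04 and a 95% interval of -0.18 to 0.26 (edgeR adjusted p = 0.757). The sign of so small a value turned when a library was left out, to -0.02 without butyrate replicate 1 and -0.00165 without control replicate 2. Hdac8 (gene 70315, chromosome X, 102284638 to 102505381, minus strand), a class I enzyme that works outside the corepressor complexes and deacetylates cohesin, was the least abundant of its class by CPM. It had 8.32, 7.22 and 7.58 CPM with butyrate, against 8.28, 8.35 and 9.25 CPM in control, so the groups overlapped by 1 library. Its log2 fold change was -0.16 (95% interval -0.55 to 0.22, edgeR adjusted p = 0.454), and 128 and 148 counts over the butyrate and control libraries limit the precision of this value.

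Of the class IIa genes, Hdac5 and Hdac7 fell and Hdac4 was not called. Hdac7 (gene 56233, chromosome 15, 97792661 to 97844502, minus strand), a repressor abundant in thymocytes and T cells, was the family's most abundant gene by CPM. It had 262, 241 and 182 CPM with butyrate, against 351, 349 and 298 CPM in control. All 3 butyrate libraries lay below the lowest control library, with butyrate replicate 3 lowest of all. The log2 fold change was -0.54 (SE 0.137, edgeR adjusted p = 0.0111), a decrease to 0.686 of the control level. Exons of Hdac7 share 29 bases, 0.429% of its exon length, with Slc48a1 on the opposite strand. Slc48a1, a heme transporter gene named after its values were seen, rose by a log2 fold change of 0.94 (edgeR adjusted p = 0.00015, 323 ± 26.5 CPM with butyrate and 168 ± 14.2 CPM in control, SD, n = 3 each).

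Hdac5 (gene 15184, chromosome 11, 102195747 to 102230172, minus strand), a signal-regulated repressor of MEF2 targets, had 26.8, 27.7 and 19.4 CPM with butyrate, against 35.3, 47.3 and 36.5 CPM in control. The groups did not overlap. The log2 fold change was -0.68 (SE 0.167, edgeR adjusted p = 0.00947), a decrease to 0.622 of the control level. Hdac4 (gene 208727, chromosome 1, 91928779 to 92195702, minus strand), another class IIa repressor, overlapped between groups at 13.9, 14.4 and 12.8 CPM with butyrate, against 14.4, 11.9 and 13.0 CPM in control (log2 fold change 0.07, 95% interval -0.26 to 0.39, edgeR adjusted p = 0.73). A noncoding gene on the opposite strand, Gm26720, covers 22.4% of the Hdac4 exon bases, and the strand setting of the counting was not given in the sources used here. Hdac7 kept 85.0% to 86.6% of the class IIa counts with butyrate and 85.5% to 87.6% in control, so these shares overlapped while both Hdac5 and Hdac7 fell. Hdac9, the remaining class IIa gene of the mouse, is not among the 10 and was named after its values were seen: it had 1 count over the butyrate and 5 over the control libraries.

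The class IIb genes were both lower in every butyrate library than in any control library, and 1 of them was called. Hdac10 (gene 170787, chromosome 15, 89123303 to 89128700, minus strand) had 15.5, 12.9 and 9.79 CPM with butyrate, against 29.7, 19.3 and 17.7 CPM in control. Control replicate 1 stood well above the other control libraries. Its log2 fold change was -0.80 (SE 0.236, edgeR adjusted p = 0.0223). The call was lost without control replicate 1 (-0.53, adjusted p = 0.0639, against -0.75 for Hdac5 in that fit), without butyrate replicate 2 (-0.81, adjusted p = 0.0614) and without butyrate replicate 3 (-0.64, adjusted p = 0.0715).

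Hdac6 (gene 15185, chromosome X, 7930116 to 7948047, minus strand), which acts on tubulin in the cytoplasm, had 21.3, 17.0 and 14.6 CPM with butyrate, against 23.0, 22.3 and 23.7 CPM in control. The control libraries lay close together and the butyrate libraries spread below them. The log2 fold change was -0.38 (95% interval -0.72 to -0.05, edgeR adjusted p = 0.0615), which missed the threshold. With the replicate number as a block it passed (-0.39, adjusted p = 0.0386), as it did without butyrate replicate 1 (-0.54, adjusted p = 0.0141) and with no filter on low counts (-0.42, adjusted p = 0.0422).

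Hdac11 (gene 232232, chromosome 6, 91156670 to 91174692, plus strand), the class IV enzyme, had the family's largest fold change and its lowest level in control. Butyrate replicates 1, 2 and 3 held 33, 25 and 16 counts, and control replicates 1, 2 and 3 held 3, 1 and 4. In CPM these were 6.1, 4.3 and 2.96 with butyrate, against 0.54, 0.185 and 0.649 in control, where 3 counts, the limit that a count of 0 allows, correspond to 0.48 to 0.557 CPM. All butyrate libraries were above, and all control libraries near, that limit. Over the groups, 74 against 8 counts correspond to a ratio of 9.51 per unit of depth (95% exact bounds 4.59 and 22.9, for counting error alone). The fitted log2 fold change was 3.19 (SE 0.475, edgeR adjusted p = 0.000818) and ran from 2.86 to 3.53 when single libraries were left out. No control library and every butyrate library passed the filter's cutoff for Hdac11, so it could be tested only as a gene that rose, and it was not tested with the filter of at least 5 CPM in 3 libraries. Within the butyrate group, Hdac11 and Itgam were both lowest in replicate 3 (33.3 CPM for Itgam, against 51.0 and 48.0 CPM in replicates 1 and 2). Cd22 ran in the same order as Hdac11, at 6.29, 3.61 and 2.22 CPM in butyrate replicates 1, 2 and 3. Sdc1, Cxcr2, Siglecf, Epor and Hbb-b1 were highest in replicate 3, at 24.0, 5.73, 9.98, 4.25 and 31.4 CPM. Replicate 3 was the lowest butyrate library for 37.6% of all tested genes, so a shared order says little. The part of other cells in the Hdac11 level was not tested. Genes annotated on the opposite strand, Gm44002 and Gm14573, cover 15.4% and 2.49% of the Hdac11 exon bases, and reads from them could not be told apart if strand was not used in counting.

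Butyrate replicate 3 was the lowest library of its group for 7 of the 10 genes and the highest for 2, Hdac1 and Hdac2. Over all tested genes it was lowest for 37.6% and highest for 31.7%. Without it the log2 fold changes were -0.41 for Hdac7 (edgeR adjusted p = 0.0177), -0.54 for Hdac5 (0.0249) and 0.47 for Hdac1 (0.00431), so these calls did not rest on that library.

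**Figure D2:**
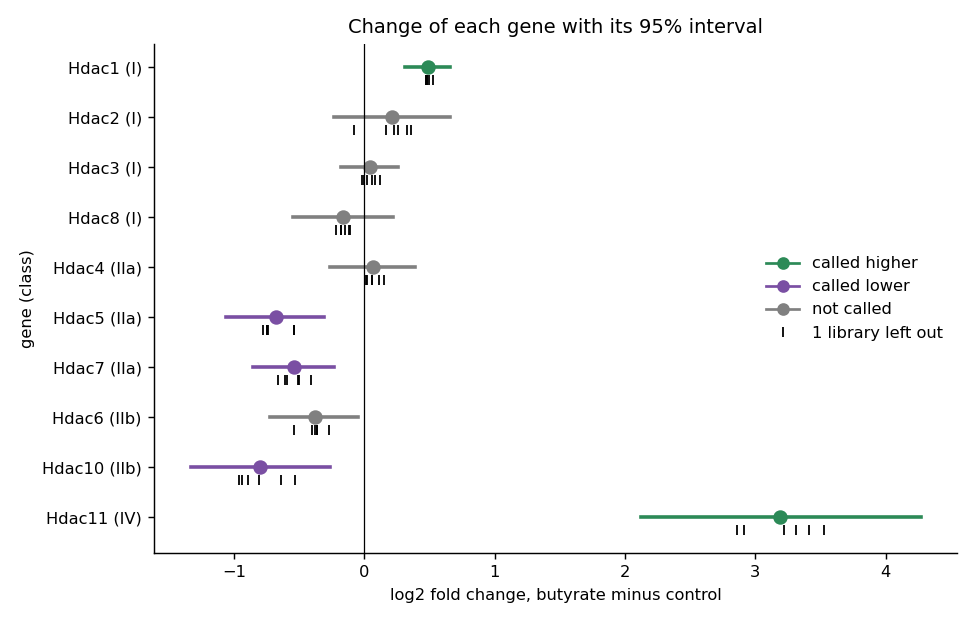
Log2 fold change of each gene, butyrate minus control (horizontal axis), with its 95% interval, and, as ticks under each, the 6 fits that leave out 1 library. The ticks of Hdac1, Hdac5, Hdac7 and Hdac11 stay on 1 side of 0 and away from it, while those of Hdac2 and Hdac3 lie on both sides.

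Windows around annotated start sites of Hdac5, Hdac7 and Hdac11 are shown because these genes were called in both directions. Each holds 250 bases before and 50 after a RefSeq start, 5′ to 3′ on the gene's strand, from GRCm38.p6, the assembly behind mm10. For Hdac5 and Hdac7 that start is the outer end of the gene, at 102230172 and 97844502. For Hdac11 it is at 91156815, inside a gene that begins at 91156670. Capitals mark the motifs searched for on both strands: the GC box GGGCGG, the E-box CACGTG, the cyclic AMP response element TGACGTCA and the MEF2 motif.
Hdac5, chr11:102230123-102230422, minus strand: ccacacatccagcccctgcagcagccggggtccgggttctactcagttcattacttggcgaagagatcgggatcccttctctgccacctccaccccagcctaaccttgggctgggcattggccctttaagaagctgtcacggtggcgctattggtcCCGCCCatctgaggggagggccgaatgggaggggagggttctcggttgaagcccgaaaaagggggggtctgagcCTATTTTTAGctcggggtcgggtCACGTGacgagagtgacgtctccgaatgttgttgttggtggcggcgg
Hdac7, chr15:97844453-97844752, minus strand, the most upstream of its starts: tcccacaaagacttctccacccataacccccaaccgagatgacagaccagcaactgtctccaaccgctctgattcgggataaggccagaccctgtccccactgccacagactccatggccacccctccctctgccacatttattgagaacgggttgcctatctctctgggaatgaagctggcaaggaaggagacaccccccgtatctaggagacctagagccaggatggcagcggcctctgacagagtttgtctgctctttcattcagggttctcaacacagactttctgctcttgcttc
Hdac11, chr6:91156565-91156864, plus strand: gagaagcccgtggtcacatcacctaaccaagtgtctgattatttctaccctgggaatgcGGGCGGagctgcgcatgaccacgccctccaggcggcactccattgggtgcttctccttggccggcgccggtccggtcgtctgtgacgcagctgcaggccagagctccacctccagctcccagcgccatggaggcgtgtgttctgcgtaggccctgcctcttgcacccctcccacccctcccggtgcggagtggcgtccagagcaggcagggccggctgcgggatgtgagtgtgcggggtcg

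The Hdac5 window, of a gene that fell, holds 1 GC box from base -94 to -89, 1 MEF2 motif from -20 to -11 and 1 E-box from 3 to 8, counted from 0 at the start. The Hdac11 window, of a gene that rose, holds 1 GC box from -191 to -186, and the Hdac7 window shown holds none of the 4 motifs, while another of its windows holds 1 GC box. Of 32851 RefSeq windows of this length, 35.7% hold the GC box, 7.15% the E-box, 1.79% the response element and 3.19% the MEF2 motif. The CG dinucleotide occurs 18 times in the Hdac5 window, 22 times in that of Hdac11 and 6 times in the Hdac7 window shown, with a median of 7 over all windows. Windows were found for 7 of the 10 genes, 10 windows in all, and Hdac7 has 4 of them with 5, 6, 31 and 35 CG dinucleotides, so its windows lie both below and above those of Hdac5 and Hdac11. Counts per gene do not show which start was used, and a motif match here is a description of letters only.

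Levels of different genes were set side by side per kilobase of exon (RPKM, from TMM-scaled CPM and the exon length in GENCODE M21). With butyrate, Hdac7 stood at 33.8 ± 6.16 RPKM and Hdac1 at 32.6 ± 0.681 RPKM (SD, n = 3), and their libraries overlapped. In control, Hdac7 stood at 49.3 ± 4.42 RPKM, above Hdac1 at 23.3 ± 1.16 RPKM in every library. Hdac3 followed at 22.9 ± 1.67 RPKM with butyrate and 22.2 ± 1.98 RPKM in control. Its libraries overlapped those of Hdac1 in control and lay below them with butyrate. Hdac2 came next at 14.0 ± 4.55 RPKM with butyrate and 12.1 ± 0.742 RPKM in control.

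A middle tier of Hdac10, Hdac5 and Hdac6 ran from 2.81 to 3.77 RPKM on average with butyrate and from 3.95 to 6.58 RPKM in control, and neighbours within it overlapped in both groups. Hdac8, at 1.59 ± 0.116 RPKM with butyrate and 1.78 ± 0.112 RPKM in control, lay below that tier. With butyrate, Hdac11 (1.16 ± 0.41 RPKM) overlapped both Hdac8 and Hdac4 (0.866 ± 0.0544 RPKM), so their order was not resolved, and with the longest transcript as the length Hdac11 and Hdac4 stood at 1.68 and 1.69 RPKM. In control Hdac11 (0.119 ± 0.063 RPKM) lay below Hdac4 (0.827 ± 0.0802 RPKM) in every library. With the longest transcript as the length, Hdac1 stood first with butyrate (55.1 RPKM, against 44.1 RPKM for Hdac7), and Hdac7 first in control (64.3 RPKM, against 39.3 RPKM for Hdac1).

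**Figure D3:**
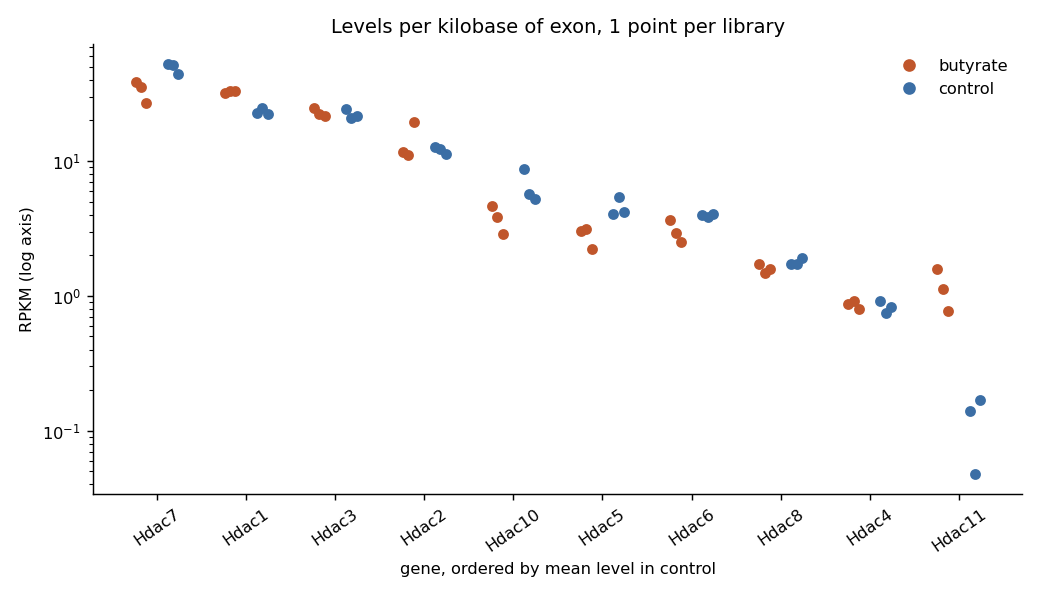
Level of each gene in RPKM on a log axis, 1 point per library, with butyrate left of control and genes ordered by their mean in control. Hdac7 and Hdac1 are apart in control and overlap with butyrate, and Hdac11 overlaps Hdac8 and Hdac4 with butyrate (1.16 RPKM on average) and lies below both in control (0.119 RPKM).

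Summed over the 10 genes, the level was 123, 115 and 112 RPKM with butyrate, against 131, 127 and 116 RPKM in control, and the groups overlapped. Class I genes made up 57.1%, 58.7% and 67.7% of it with butyrate, against 46.9%, 46.9% and 49.3% in control. Class IIa genes made up 34.9%, 34.5% and 26.8% with butyrate, against 43.3%, 45.6% and 42.5% in control. Class IIb genes made up 4.84% to 6.73% with butyrate and 7.52% to 9.7% in control, and Hdac11 0.687% to 1.29% with butyrate and 0.038% to 0.146% in control. The shares of each class did not overlap between groups, nor did the levels of 57.1% of all genes tested. The shares are parts of the same sum, so a fall in any class raises the shares of the others. Hdac7 alone made up 28.9% of the sum with butyrate and 39.5% in control. Hdac11, the only class IV gene, was near the counting limit in control. These sums mix the called changes above with genes that did not pass, and are given as a description.

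The proteins that work with these enzymes were followed as lists of 67 genes, of which 62 were tested. By edgeR's test 8 of them rose with butyrate and 25 fell, beside 23.5% and 22.5% of all tested genes. The median log2 fold change was -0.17. Without butyrate replicate 2 the number called higher was 5, where 2369 of all tested genes were called higher, against 2756 in the main fit. It was 11 with upper quartile scaling (3338 over all genes). With the replicate block it was 10 (3220 over all genes), as at 5 CPM or more in 3 libraries (2466). The number called lower was 19 to 24 without single libraries and 19 with upper quartile scaling. Over all tested genes, 2118 to 2552 fell without single libraries and 2067 with upper quartile scaling, against 2637 in the main fit.

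Partners and kinases of the class IIa enzymes fell in 9 of 18 tested members and rose in 1. Over all tested genes, 22.5% fell and 23.5% rose. Prkd3, a kinase that phosphorylates class IIa enzymes for export from the nucleus, averaged 84.1 ± 3.78 CPM with butyrate and 143 ± 11.8 CPM in control (SD, n = 3 each, log2 fold change -0.76, edgeR adjusted p = 0.000249). Ywhah, a 14-3-3 protein gene of the family that holds the phosphorylated enzymes in the cytoplasm, averaged 389 ± 17.6 CPM with butyrate and 572 ± 9.59 CPM in control (-0.56, adjusted p = 0.000614). Mef2a and Mef2d, transcription factors bound by Hdac4, Hdac5 and Hdac7 and named after their values were seen, had log2 fold changes of -0.52 (adjusted p = 0.00553) and -0.16 (adjusted p = 0.157). Ywhag, the member that rose, did so by a log2 fold change of 0.25 (adjusted p = 0.045). Its call was lost without butyrate replicate 2 (adjusted p = 0.102) or 3 (0.112), without control replicate 1 (0.141), 2 (0.0868) or 3 (0.0588), and with no filter (0.102).

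Corepressor complex subunits, which recruit the class I enzymes, fell in 15 of 37 tested genes and rose in 5. In all, 54.1% of them were called, beside 45.9% of all tested genes. Ncor1, the scaffold that activates Hdac3, averaged 169 ± 5.9 CPM with butyrate and 265 ± 3.57 CPM in control (log2 fold change -0.65, edgeR adjusted p = 0.000216). Ncor1 was thus called lower, while Hdac3 itself was not called. Gps2, a subunit of the same complex, fell (-0.74, adjusted p = 0.00423) and Tbl1xr1 rose (0.38, adjusted p = 0.0149, but 0.0519 without butyrate replicate 2).

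SIN3 complex subunits fell in 6 of 15 tested and rose in 1 (46.7% called, beside 45.9% of all tested genes). Arid4a averaged 38.3 ± 4.12 CPM with butyrate and 74.3 ± 3.27 CPM in control (log2 fold change -0.96, adjusted p = 0.000165), and Ing1, a reader of methylated histone H3, fell by 0.70 on the log2 scale (edgeR adjusted p = 0.000487). Sap18 rose by 0.33 (adjusted p = 0.0352), a call that ended without butyrate replicate 2 (0.119) or 3 (0.0694), without control replicate 1 (0.104) or 2 (0.0833), and with no filter (0.0692) or DESeq2 (0.0817). NuRD subunits fell in 5 of 12 tested and none was called higher (41.7% called, beside 45.9% of all tested genes). Chd3, a remodelling ATPase, averaged 39.2 ± 2.77 CPM with butyrate and 110.4 ± 31.7 CPM in control (-1.49, adjusted p = 0.000348), and Cdk2ap1 fell by 0.53 (adjusted p = 0.00137).

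CoREST and MiDAC subunits rose in 2 of 7 and fell in 2 (57.1% called, beside 45.9% of all tested genes). Rcor2, a CoREST scaffold, had 14.1, 21.7 and 17.0 CPM with butyrate, against 1.8, 2.04 and 2.6 CPM in control (log2 fold change 3.01, SE 0.248, edgeR adjusted p = 5.96e-05). No butyrate library came near the control range, 2 of 3 control libraries passed the filter's cutoff, and this log2 fold change was the largest among the tested partner genes. Trerf1 rose by 1.17 (adjusted p = 0.021). Its call, though not its direction, was lost without butyrate replicate 2 (1.06, adjusted p = 0.0726), butyrate replicate 3 (0.95, 0.0725) or control replicate 1 (0.93, 0.0586). Mideas fell by 0.35 (adjusted p = 0.0135) and Rcor3 by 0.71 (0.0224). Without control replicate 1 the adjusted p was 0.0512 for Mideas and 0.0871 for Rcor3, and for Rcor3 it was 0.0708 and 0.0562 without butyrate replicates 2 and 3 and 0.0571 with DESeq2.

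Sirtuins, deacylases that use NAD in place of zinc and are not targets of butyrate, rose in 2 of 7 and fell in 1. Of the 7, 42.9% were called, near the 45.9% of all tested genes. Sirt1 averaged 38.5 ± 2.12 CPM with butyrate and 83.6 ± 3.75 CPM in control (log2 fold change -1.12, edgeR adjusted p = 4.85e-05). Its decrease on the log2 scale was larger than that of any of the 10 zinc-dependent genes, a difference that was not tested. Sirt2, a mainly cytoplasmic tubulin deacetylase like Hdac6, averaged 82.8 ± 5.87 CPM with butyrate and 55.4 ± 0.256 CPM in control (0.58, adjusted p = 0.000738), and mitochondrial Sirt4 averaged 17.2 ± 0.376 CPM with butyrate and 9.11 ± 0.902 CPM in control (0.91, adjusted p = 0.000953).

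**Figure D4:**
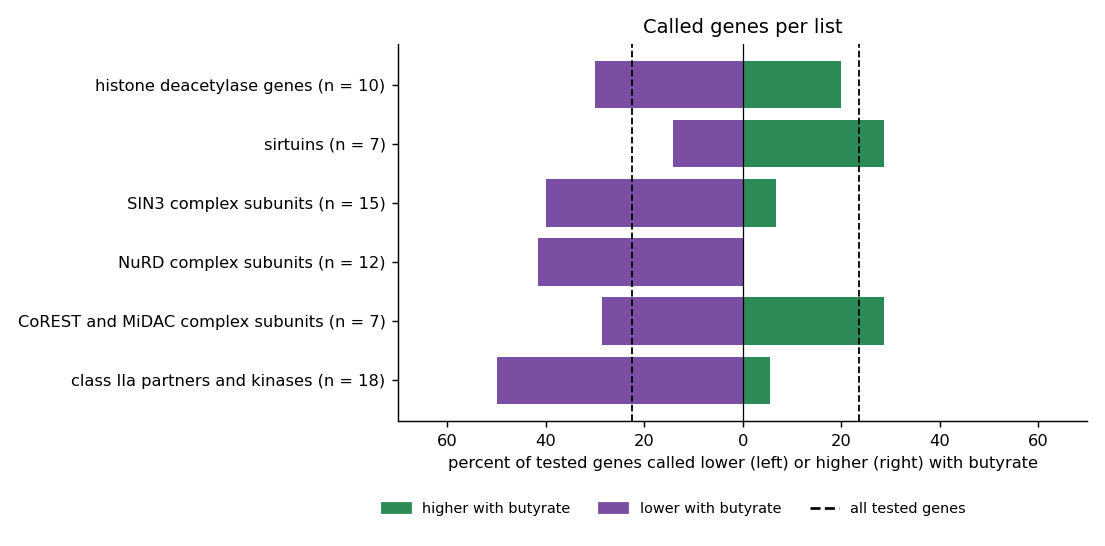
Percent of the tested genes of each list called lower (left of 0) or higher (right of 0) with butyrate, beside dashed lines at 22.5% and 23.5% for all tested genes. The sirtuins stay short of the line on the lower side and the other lists pass it, some by few genes. On the higher side the sirtuins and the CoREST and MiDAC list pass the line, by few genes, and the other lists stay short of it.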

How the data were processed

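RNA of 6 libraries was measured, and the authors deposited raw read counts per gene number, with 1 column per library, assigned through the sample labels. The submitters' processing notes list the tools TopHat, featureCounts, Subread, CASAVA, Picard and edgeR, and build mm10. Roles, versions and settings, strand included, were not given in the sources used here. Libraries were made with a TruSeq RNA kit starting at 1 µg RNA, per the labels.

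RefSeq (GRCm38.p6) named 25275 of 27179 gene numbers and GENCODE M21 another 18. The 1886 unnamed numbers held 0.961% to 1.2% of a library's counts and stayed in the tests. Positions are 1-based, from RefSeq. Butyrate was compared with control over all genes by edgeR's quasi-likelihood test (edgeR 4.0.16, R 4.3.3), with TMM scaling, filterByExpr and Benjamini-Hochberg adjustment over 11740 genes, and genes with an adjusted p under 0.05 were called. Standard errors (log2 fold change over root F) and 95% intervals come from that fit. Scripts were tested on simulated data. Alternatives were DESeq2 1.42.0, limma voom 3.58.1 and robust edgeR as tests, scaling by RLE, upper quartile, totals or TMM without the top 50 genes, no filter or 5 CPM in 3 libraries, the replicate block, and leaving out each library.

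The family and the lists were chosen with earlier results of these data known. Named genes are the 10 family genes and, per list, up to 2 called genes in each direction with the smallest p, plus the abundant defining markers of other cells. Replicate numbers come from the titles. After subtraction of group means, same-numbered butyrate and control libraries correlated at 0.362, 0.197 and 0.353 across genes. Differently numbered ones correlated at -0.301 to -0.0746, so the numbers were treated as pairs. Subtracting group means ties these values together, as positive correlations for some pairs pull the others below 0. The labels do not say what the numbers stand for, so the pairing is not certain. The main fit leaves this pairing out, and the replicate block takes it up. Within groups, libraries differed beyond sampling noise (chi-square over its degrees of freedom, 5.69 to 11.4), so each was 1 replicate. Counts carry no molecular identifiers here, so counting intervals cover counting error only. The values of 1 listed gene are not reported here.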

Additional observations from a re-analysis of the deposited data

How the results depend on the processing

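Hdac1, Hdac5 and Hdac7 kept direction and call under all 16 alternatives, with log2 fold changes of 0.45 to 0.57, -0.78 to -0.54 and -0.66 to -0.41. Hdac11 ran from 2.86 to 3.53, but with the filter on low counts it could be called only as a gene that rose, so those fits do not bear on its stability. With no filter it was 3.16 (edgeR adjusted p = 0.000335). Hdac2, Hdac3, Hdac4 and Hdac8 were called under none. Hdac10 was called under 13 of 16 (-0.96 to -0.53 without single libraries), and Hdac6 under 3 of 16 (-0.54 to -0.27 without single libraries), at -0.39 with the replicate block and -0.42 with no filter. The cause of these changes was not tested. Without single libraries Hdac2 ran from -0.08 to 0.36 and Hdac3 from -0.02 to 0.12. With at least 5 CPM in 3 libraries, 1 family gene was called higher, because Hdac11 was not tested. Of the listed partner genes, 5 to 8 were called higher without single libraries, and 11 with upper quartile scaling, where 3338 of all tested genes were. The replicate block changed no call of the family other than that of Hdac6, and moved the calls over all genes to 3220 higher and 3095 lower, with 2756 and 2637 without it. With the longest transcript as the length, Hdac7 made up 37.6% and class I 49.9% of the family level in control, where exon length gave 39.5% and 47.7%. The fits of the named partner genes under these settings, and the family shares without single libraries, were added after seeing the data. Depth limits Hdac11 in control and Hdac8 in both groups.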
